A study of Mus musculus with 8 samples.

Results

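The desmosomal cadherins and their armadillo partners in mouse keratinocytes (KCs) comprised 10 genes, taken by their symbols from the 41457 genes of the deposited tables. They were the desmogleins Dsg1a, Dsg1b, Dsg2 and Dsg3, the desmocollins Dsc1, Dsc2 and Dsc3, plakoglobin (Jup), and the plakophilins Pkp1 and Pkp3. The rule rests on symbols alone. KCs are the epithelial cells of the epidermis, and here they were wildtype C57BL/6 cells (C57BL/6J in the study's text) prepared from the tail skin of adult mice, untreated, grown in serum-free KC medium of low calcium content and split near confluence. Poly(A) RNA of 4 samples after 1 week and of 4 samples after 3 weeks in culture was sequenced, from 4 independent experiments, to see how far the time in culture changes the transcriptome of such cells. All samples shared strain, genotype, tissue and medium, and differed by label only in the weeks of cultivation. The study's text says that batches of KCs were shared between the times, but the labels do not say which samples share a batch.

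Desmosomes are the adhesive junctions that hold epidermal cells together against mechanical strain. Desmogleins and desmocollins are calcium-dependent cadherins that bridge the gap between neighbouring cells, plakoglobin and the plakophilins bind their cytoplasmic tails, and desmoplakin ties this plaque to the keratin filaments. In epidermis, Dsg3 and Dsc3 are known for the basal and lower layers, whereas Dsg1 and Dsc1 are known for the suprabasal layers, and the mouse carries Dsg1 in several closely similar copies.

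A promoter sequence of RefSeq was matched for 1 of the 10 genes, Jup. The 250 bases before the RefSeq start of Jup (GRCm38.p6, chr11:100397791-100398040, minus strand) and of Dsp (chr13:38151044-38151293, plus strand) are shown because these genes encode the consecutive links from cadherin tail to keratin and are compared below. Each is written 5′ to 3′ in the direction of its gene, and the capitals mark GGGCGG, the letters read by SP and KLF factors, or its complement CCGCCC.
Jup: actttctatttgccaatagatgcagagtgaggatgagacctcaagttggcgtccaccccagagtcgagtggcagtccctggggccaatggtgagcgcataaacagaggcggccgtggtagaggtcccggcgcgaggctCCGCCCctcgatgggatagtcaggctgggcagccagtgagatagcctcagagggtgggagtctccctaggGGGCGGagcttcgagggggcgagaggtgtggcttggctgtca
Dsp: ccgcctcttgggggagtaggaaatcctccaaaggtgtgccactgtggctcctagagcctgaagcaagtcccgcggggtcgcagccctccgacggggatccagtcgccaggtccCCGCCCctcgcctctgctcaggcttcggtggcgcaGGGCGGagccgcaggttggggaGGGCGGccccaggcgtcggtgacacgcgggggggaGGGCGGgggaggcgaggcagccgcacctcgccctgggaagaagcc
The Jup window held 2 matches, 112 and 42 bases before the start, and the Dsp window held 4. GGGCGG was found on either strand in 32.7% of the 32851 RefSeq promoter windows of this length. The letters ACCGGT (core of the grainyhead-like motif), TGANTCA (AP-1), CACCTG (E-box) and TATAAA were searched on both strands in the same way, were in neither window, and were held by 1.86%, 6.75%, 17.2% and 12.4% of all windows. These matches describe the letters only.

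In the coordinates of the deposited tables (GRCm38), 7 of the 10 genes lay in the desmosomal cadherin cluster of chromosome 18. The desmocollins were Dsc3 (ENSMUSG00000059898, chr18:19960930-20002351, minus strand), Dsc2 (ENSMUSG00000024331, chr18:20030633-20059554, minus strand) and Dsc1 (ENSMUSG00000044322, chr18:20084184-20114871, minus strand). The desmogleins were Dsg1a (ENSMUSG00000069441, chr18:20310811-20343350, plus strand), Dsg1b (ENSMUSG00000061928, chr18:20376729-20410196, plus strand), Dsg3 (ENSMUSG00000056632, chr18:20510274-20547459, plus strand) and Dsg2 (ENSMUSG00000044393, chr18:20558074-20604521, plus strand). The plaque genes lay elsewhere, with Jup (ENSMUSG00000001552, chr11:100368958-100397763, minus strand), Pkp1 (ENSMUSG00000026413, chr1:135871395-135919207, minus strand) and Pkp3 (ENSMUSG00000054065, chr7:141078218-141090510, plus strand). Desmoplakin, Dsp (ENSMUSG00000054889, chr13:38151294-38198577, plus strand), was followed as the partner that the plaque binds.

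Each sample had between 13896807 and 20026084 reads on exons. Levels are given as RPKM, the exon reads scaled to exon length and sequencing depth, which allows genes of unlike length to be compared. Log2 fold changes are 3 weeks over 1 week from edgeR on the exon reads after TMM scaling, with a standard error (SE), and its quasi-likelihood p-values were adjusted after Benjamini-Hochberg over all 12590 tested genes. All tested genes had a median of 0.03 on this scale and of -0.16 on log2(RPKM + 0.1), so RPKM values run slightly lower at 3 weeks. Basal KC markers differed widely in level. Krt5 stood at 6039 to 6384 RPKM at 1 week and 1938 to 2581 RPKM at 3 weeks. The lowest of them, Dst, stood at 4.96 to 8.39 RPKM at 1 week and 0.774 to 16.8 RPKM at 3 weeks. The summed level of the 5 fibroblast markers was at most 4.34 RPKM, of the 4 leukocyte markers 1.62 RPKM and of the 3 endothelial markers 0.548 RPKM in any sample, and the Langerhans cell gene Cd207 was at 0 throughout. The RNA was bulk RNA, so fewer cells of a type and less RNA per cell cannot be told apart.

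The order of the mean levels of the desmosomal cadherins and plaque genes was the same at both times. Pkp1, a plakophilin that recruits desmoplakin, was the highest, followed by Jup, Dsg3, Dsc3, Pkp3, Dsc2, Dsg2, Dsg1b, Dsg1a and Dsc1. Mean RPKM ran from 173 ± 29.5 (SD, n = 4) for Pkp1 to 1.02 ± 1.21 for Dsc1 at 1 week, and from 172 ± 81.4 to 0.0584 ± 0.0267 at 3 weeks. Among all listed genes, Pkp1 ranked 305 at 1 week and 293 at 3 weeks, and Dsc1 ranked 10290 and 15067. Neighbours at the top of the order were not separated beyond their spread, since Pkp1 exceeded Jup in 6 of 8 samples, Jup exceeded Dsg3 in 7 and Dsg3 exceeded Dsc3 in 6. The steps from Dsc3 to Pkp3, from Pkp3 to Dsc2 and from Dsc2 to Dsg2 were seen in 8 of 8 samples, and only the last of these had ranges that did not overlap. Dsg2 exceeded Dsg1b in 6 of 8 samples, but in only 2 of the 4 samples of 1 week, while Dsg1b exceeded Dsg1a and Dsg1a exceeded Dsc1 in 8 of 8. The 7 genes from Pkp1 to Dsg2 are called abundant and the other 3 scarce for short, without a gap between Dsg2 and Dsg1b.

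**Figure D1:**
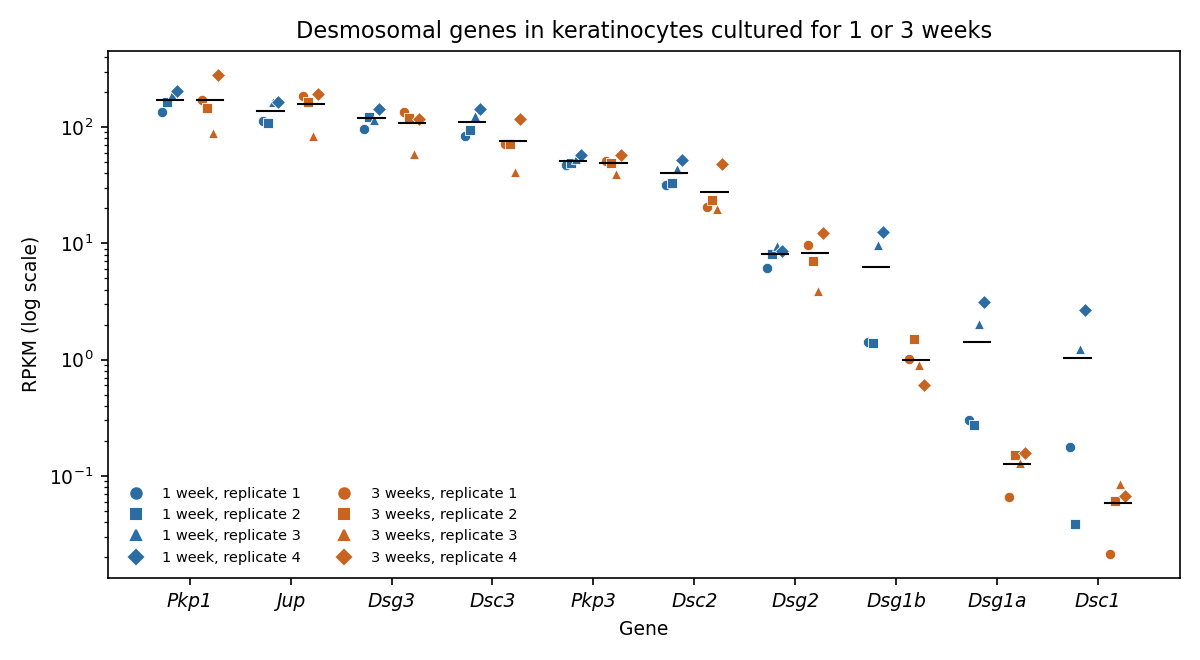
RPKM of the 10 desmosomal genes (log scale) in each of the 4 samples per time, 1 week in blue and 3 weeks in orange, with the symbol giving the replicate and the bar the mean. Dsg1a is the only gene whose samples do not overlap between the times, and replicate 3 of 3 weeks is the lowest point for each of the 7 abundant genes.

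Between 1 and 3 weeks, 2 of the 10 genes fell and none rose. Both were desmoglein 1 copies, Dsg1a and Dsg1b, and the 7 abundant genes did not pass the test. Of the 10 genes, 9 had enough reads to be tested, so that 2 of 9 were called, beside 32.8% of all tested genes called in either direction and 17% called lower, a share near this background. No member was called higher by edgeR, against 15.7% of all tested genes, none had an unadjusted p under 0.05 in that direction, and neither DESeq2 (19.3% of all genes higher) nor limma on log2(RPKM + 0.1) (10.4% higher) called any. The median log2 fold change of the 9 tested genes was 0.00, beside 0.03 for all tested genes.

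The 2 lower calls were suprabasal desmogleins. Dsg1a stood at 0.305, 0.273, 2.01 and 3.13 RPKM in replicates 1 to 4 of 1 week and at 0.0661, 0.150, 0.128 and 0.156 RPKM at 3 weeks. Every 3-week sample was below every 1-week sample, and within 1 week replicates 3 and 4 were far above replicates 1 and 2. The log2 fold change of Dsg1a was -3.35 (SE 0.84, 95% interval -5.24 to -1.45, edgeR adjusted p = 0.0150). It passed the filter on low counts through the 1-week samples, since only 3 of the 4 samples of 3 weeks exceeded the limit, and it had 7 to 14 reads per sample at 3 weeks against 32 to 314 at 1 week. Of the 10 genes it was the sole one without overlap between the groups in RPKM, and 26.2% of tested genes lay without overlap in that direction.

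Dsg1b stood at 1.42, 1.396, 9.65 and 12.6 RPKM at 1 week and at 1.00, 1.504, 0.891 and 0.601 RPKM at 3 weeks. Replicates 1 and 2 of 1 week lay below the highest sample of 3 weeks, so the groups overlapped. The log2 fold change of Dsg1b was -2.47 (SE 0.74, 95% interval -4.15 to -0.80, edgeR adjusted p = 0.0310). This call did not hold when any of 6 samples (replicates 3 and 4 of 1 week and the 4 samples of 3 weeks) was left out, with adjusted p between 0.0523 and 0.0869, nor with the replicate number as a block (log2 fold change -1.86, edgeR adjusted p = 0.149), where 12.4% of all genes were called lower. Dsg1a remained under 0.05 in each of these fits, with adjusted p at most 0.0462 on leaving out a sample, and was not called by limma on log2(RPKM + 1), where the adjusted p was 0.0778 and 24.5% of all genes were called lower. Dsg1b was not called by limma on log2(RPKM + 0.1) (adjusted p = 0.0653) or on log2(RPKM + 1) (adjusted p = 0.0822). In all, Dsg1b was called in 10 of 19 alternatives.

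Dsc1, the suprabasal desmocollin, stood at 0.177, 0.0385, 1.23 and 2.65 RPKM at 1 week and at 0.0213, 0.0603, 0.0845 and 0.0675 RPKM at 3 weeks. These values rest on 17, 4, 89 and 236 reads at 1 week and on 2, 5, 7 and 5 reads at 3 weeks, where 3 reads correspond to about 0.0319 to 0.0405 RPKM. Replicate 2 of 1 week lay within the range of the 3-week samples. Dsc1 did not pass the filter and was therefore not tested, and with no filter its log2 fold change was -4.00 (edgeR adjusted p = 0.0203), with 10.5% of all genes called lower. On leaving out a sample it entered 5 fits, through the 1-week samples alone, and it was not called without replicate 1, 2 or 4 of 3 weeks (edgeR adjusted p = 0.0809, 0.0723 and 0.0554).

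Dsg1a and Dsg1b are closely similar copies. Of all stretches of 59 bases in their GENCODE vM21 transcripts, 32.7% in Dsg1a and 44.9% in Dsg1b also occurred in another gene, nearly always in the other copy or in Dsg1c. Accordingly, 71.6% of the Dsg1a reads and 57.6% of the Dsg1b reads mapped to a single place, while these shares were at or near 100% for Dsc1 and 6 of the abundant genes. On single-place reads alone, the log2 fold changes were -3.28 for Dsg1a (edgeR adjusted p = 0.0196) and -2.40 for Dsg1b (edgeR adjusted p = 0.0413), with 18.7% of all genes called lower. The ratio of Dsg1b to Dsg1a in RPKM was 4.01 to 5.11 at 1 week and 3.86 to 15.2 at 3 weeks, the latter on few reads. Dsg1c, the remaining copy, had 19 reads in all samples together and was not tested.

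**Figure D2:**
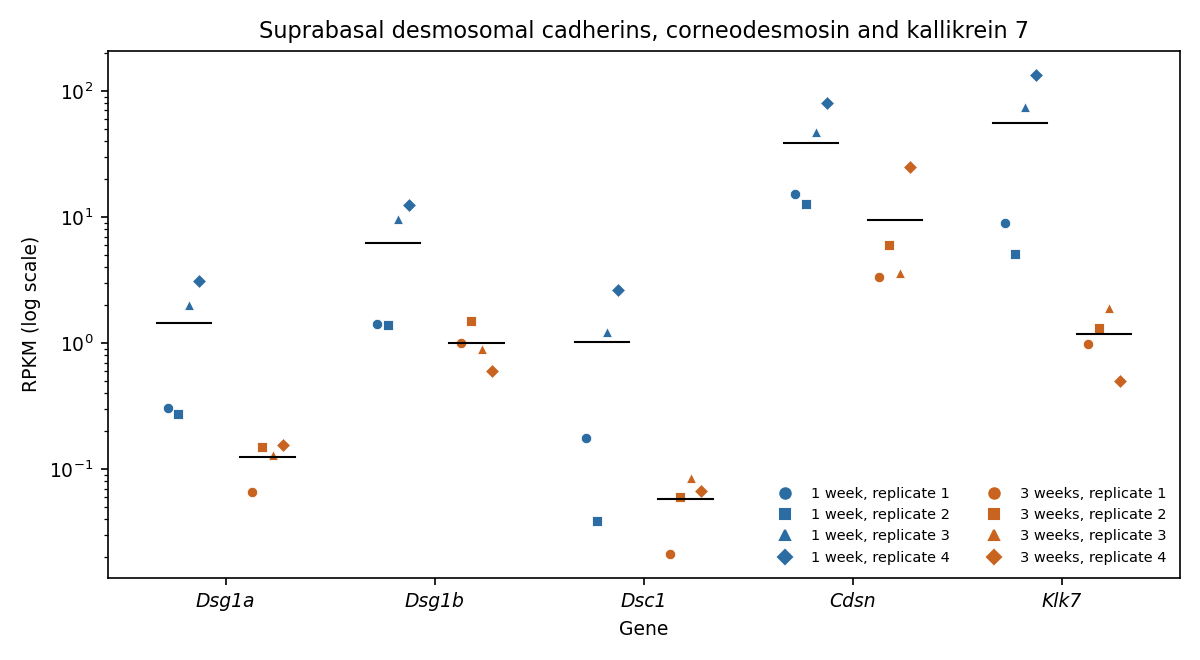
RPKM (log scale) of Dsg1a, Dsg1b and Dsc1 beside corneodesmosin (Cdsn) and kallikrein 7 (Klk7) in each of the 4 samples per time, 1 week in blue and 3 weeks in orange, with the symbol giving the replicate and the bar the mean. In each of the 5 genes, replicates 3 and 4 of 1 week stand at least 3.12-fold above replicates 1 and 2.

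The scarce cadherins were among the genes that separated the 1-week samples. The lower of replicates 3 and 4 exceeded the higher of replicates 1 and 2 by 6.59-fold for Dsg1a, 6.80-fold for Dsg1b and 6.94-fold for Dsc1. Of the abundant genes, Jup showed the same order by 1.44-fold, Dsc2 and Dsc3 by 1.33-fold each, Pkp1 by 1.16-fold, Pkp3 by 1.08-fold and Dsg2 by 1.05-fold, and Dsg3 did not show it. The same order was seen in 31.5% of all tested genes. Among genes looked up after these values were seen, Klk5 (16.4-fold), Krtdap (11.3-fold), Klk7 (8.28-fold) and Cdsn (3.12-fold) showed it too, and so did the melanocyte genes Tyrp1 (3.37-fold) and Pmel (3.24-fold). The summed level of the 5 melanocyte markers was 4.76, 3.18, 15.4 and 20.9 RPKM in replicates 1 to 4 of 1 week and 1.26 to 5.50 RPKM at 3 weeks. The 7 suprabasal and cornified markers summed to 46.1, 28.5, 162 and 201 RPKM at 1 week and to 22.1 to 69.2 RPKM at 3 weeks. The part of the cell mixture in the values of Dsg1a, Dsg1b and Dsc1 was not tested.

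Dsg3, the desmoglein of the lower epidermal layers, stood at 97.0, 123, 115 and 142 RPKM at 1 week and at 135, 120.2, 59.3 and 118 RPKM at 3 weeks. Apart from the low replicate 3 of 3 weeks, the 3-week samples lay within the range of 1 week. Its log2 fold change was 0.00 (SE 0.22, edgeR adjusted p = 0.994), and its 95% interval reached from a 0.707-fold to a 1.42-fold level. Dsg3 accounted for 84.4% to 92.6% of the summed desmoglein RPKM at 1 week and for 90.0% to 93.2% at 3 weeks. Dsg1a and Dsg1b together with Dsg2 made up the remainder, and the mean share of Dsg1b was 4.27% ± 3.54 at 1 week and 0.926% ± 0.426 at 3 weeks (SD, n = 4).

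Dsg2, the desmoglein found in simple epithelia as well, stood at 6.14, 8.11, 9.51 and 8.54 RPKM at 1 week and at 9.61, 7.09, 3.89 and 12.3 RPKM at 3 weeks. The 3-week samples spread on both sides of the 1-week samples. For Dsg2 the log2 fold change was 0.17 (SE 0.28, edgeR adjusted p = 0.685), and the 95% interval reached from 0.723-fold to 1.74-fold. Just 39.5% of the Dsg2 reads had a single mapping place, although 3.34% of the stretches of 59 bases in its transcripts occurred in another annotated gene, which was Gm16090 on the opposite strand with 2 reads in all samples. Where the remaining Dsg2 reads also mapped was not tested. On single-place reads the log2 fold change was 0.12 (edgeR adjusted p = 0.799).

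The abundant desmocollins were lower on average after 3 weeks without passing the test. Dsc3, the main desmocollin of the lower layers, stood at 83.5, 94.7, 126 and 143 RPKM at 1 week and at 71.7, 71.4, 41.4 and 117 RPKM at 3 weeks. Dsc2, the more widely expressed desmocollin, stood at 31.8, 33.1, 43.9 and 52.6 RPKM at 1 week and at 20.5, 23.5, 19.7 and 47.8 RPKM at 3 weeks. In both genes 3 samples of 3 weeks lay below every 1-week sample, and replicate 4 lay within the 1-week range. The log2 fold change was -0.43 for Dsc3 (SE 0.28, edgeR adjusted p = 0.271) and -0.38 for Dsc2 (SE 0.29, edgeR adjusted p = 0.340). Without replicate 4 of 3 weeks both were called lower, Dsc3 at -0.69 (edgeR adjusted p = 0.0463) and Dsc2 at -0.74 (edgeR adjusted p = 0.0160), in a fit that called 18.7% of all genes lower. Dsc3 held a mean of 73.0% ± 0.940 of the summed desmocollin RPKM at 1 week and 72.9% ± 4.44 at 3 weeks (SD, n = 4). Summed desmogleins over summed desmocollins gave 0.794 to 1.04 at 1 week and 0.793 to 1.57 at 3 weeks, and these ranges overlapped.

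The plaque genes did not pass the test either. Jup, which binds the tails of both cadherin families, stood at 114, 109, 164 and 165 RPKM at 1 week and at 185, 165, 83.6 and 194 RPKM at 3 weeks. Its 3-week samples included both its lowest and its highest value. For Jup the log2 fold change was 0.33 (SE 0.25, edgeR adjusted p = 0.348), with a 95% interval from 0.848-fold to 1.86-fold. The ratio of Jup to its close relative β-catenin (Ctnnb1) was 0.893 to 1.24 at 1 week and 0.492 to 1.18 at 3 weeks.

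Pkp1 stood at 136, 163, 188 and 203 RPKM at 1 week and at 169.5, 146, 88.5 and 283 RPKM at 3 weeks, and its log2 fold change was 0.13 (SE 0.29, edgeR adjusted p = 0.757). Pkp3, the plakophilin that can bind all desmosomal cadherins, stood at 47.6, 48.7, 52.8 and 57.002 RPKM at 1 week and at 50.9, 48.998, 39.1 and 57.9 RPKM at 3 weeks. Pkp3 varied least of the 10 genes, with a coefficient of variation of 8.28% at 1 week and 15.7% at 3 weeks, and its log2 fold change was 0.09 (SE 0.12, edgeR adjusted p = 0.603). The 95% interval of Pkp3 was the narrowest, from 0.882-fold to 1.28-fold. Pkp1 made up 76.8% ± 1.91 of the sum of both plakophilins at 1 week and 76.0% ± 5.64 at 3 weeks (SD, n = 4).

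**Figure D3:**
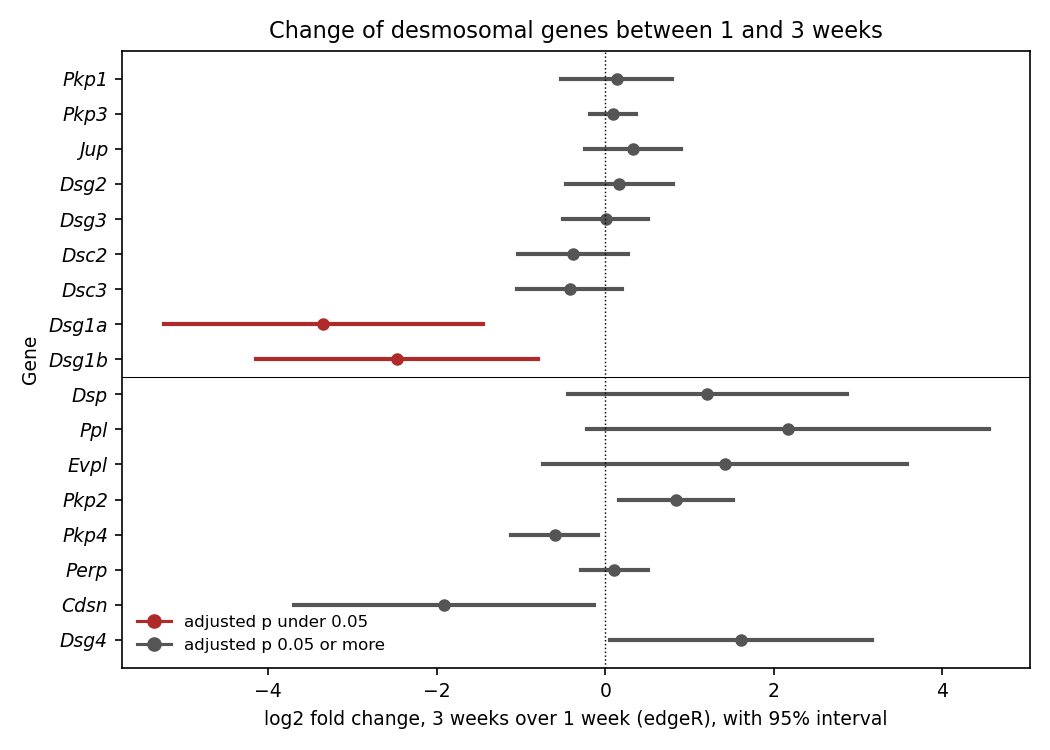
Log2 fold change (3 weeks over 1 week, edgeR, 4 samples per time) with its 95% interval for the 9 tested desmosomal genes above the line and 8 further desmosome and cornified-junction genes below it, in red where the adjusted p was under 0.05. Only Dsg1a (-3.35) and Dsg1b (-2.47) are red, and the intervals of the plakins Dsp, Ppl and Evpl are wide.

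The 3-week samples differed more among themselves than the 1-week samples in the abundant genes. The highest over the lowest RPKM ranged from 1.197 (Pkp3) to 1.71 (Dsc3) among the 7 abundant genes at 1 week and from 1.48 (Pkp3) to 3.19 (Pkp1) at 3 weeks. Replicate 3 of 3 weeks was the lowest of all 8 samples in RPKM for 7 of the 7 abundant genes, and for 5 of them on TMM-scaled log2 CPM (reads scaled to library size), where 19.4% of all tested genes were lowest in that sample. On this scale the median deviation of the 7 genes from their 8-sample means was -0.66 in replicate 3 and 0.47 in replicate 4 of 3 weeks, and between -0.23 and 0.23 in the other samples. These 2 samples also differed in the long genes as a class. The median deviation of genes with at least 5000 exon bases minus that of genes under 2000 bases was -0.52 in replicate 3 and 0.42 in replicate 4 of 3 weeks, and the exons of the 10 genes span 3616 to 8268 bases. Among the long genes 33.4% were lowest in replicate 3. Intron reads made up 1.25% of the exon and intron reads of the 7 abundant genes in replicate 3 and 0.384% to 0.698% in the other samples. After a correction for exon length the calls for the 10 genes were still 2 lower and 0 higher, beside 18% and 18.1% of all tested genes. The part of transcript length in the values of the abundant genes was not tested further.

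**Figure D4:**
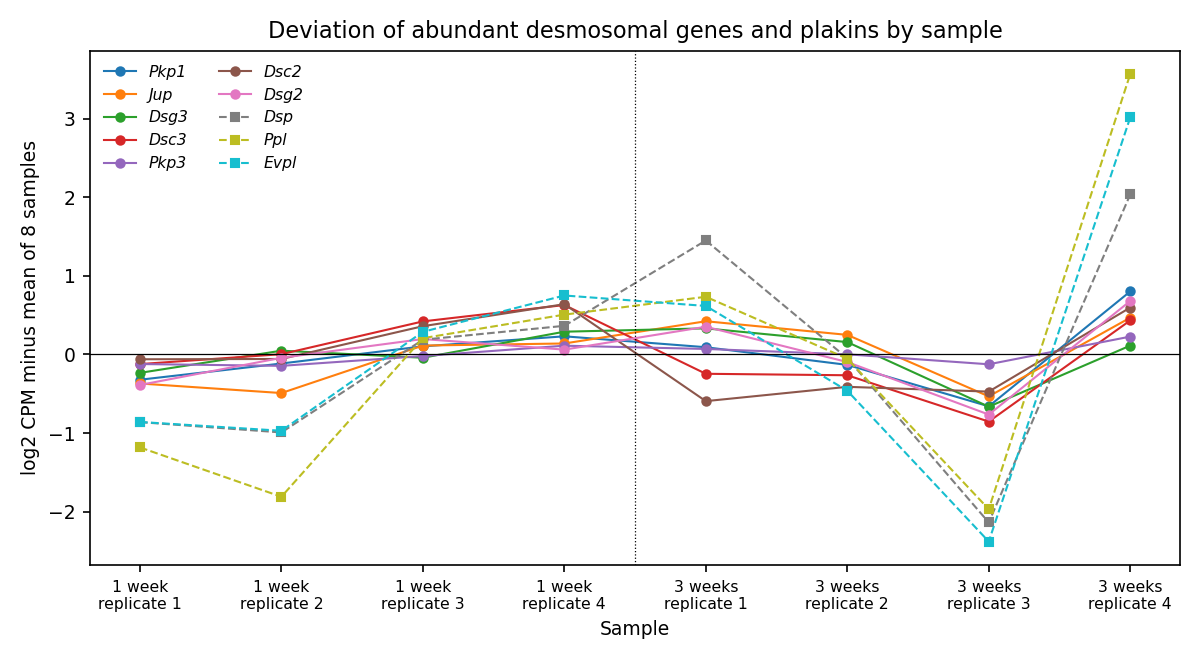
Deviation of log2 CPM from the 8-sample mean for the 7 abundant desmosomal genes (circles, solid lines) and the plakins Dsp, Ppl and Evpl (squares, dashed lines) in each sample, where the lines join the values of a gene and the samples have no order. Most genes are low in replicate 3 and high in replicate 4 of 3 weeks, with a wider swing in the plakins.

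The tables' file names carry preparation numbers, 3 of which occurred at both times. Within preparations 46, 49 and 90, Dsg1a was 4.32-fold, 12.3-fold and 18.8-fold lower at 3 weeks in TMM-scaled CPM, and Dsg1b was 1.33-fold, 5.86-fold and 19.6-fold lower. Dsc2 was lower at 3 weeks by 1.45-fold, 1.71-fold and 1.03-fold, and Dsc3 by 1.09-fold, 1.61-fold and 1.15-fold. Jup was higher by 1.73-fold, 1.10-fold and 1.26-fold. The remaining tested genes except Pkp3 changed direction between preparations, and Pkp3 was 1.14-fold, 1.02-fold and 1.08-fold higher. With these preparations as a block, a fit of 6 samples that leaves out replicate 2 of 1 week and replicate 3 of 3 weeks, Dsg1a (edgeR adjusted p = 0.00663) and Dsg1b (edgeR adjusted p = 0.0470) were called lower, as were 14.2% of all genes. Dsc1 was called lower there too, but entered this fit through the 1-week samples alone.

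Dsp, the desmosomal plakin, stood at 41.6, 39.5, 88.8 and 99.0 RPKM at 1 week and at 193, 69.0, 14.1 and 296 RPKM at 3 weeks. Its 3-week samples spread 20.9-fold and enclosed all 1-week samples. For Dsp the log2 fold change was 1.21 (SE 0.73, edgeR adjusted p = 0.238), and it was 1.56 (edgeR adjusted p = 0.0445) without replicate 3 of 3 weeks but 0.59 (edgeR adjusted p = 0.547) without replicate 4. On log2(RPKM + 0.1) it was 0.49 (limma adjusted p = 0.699). Periplakin (Ppl) and envoplakin (Evpl), plakins of the cornified envelope named after their values were seen, ranged from 1.76 to 95.4 RPKM and from 0.582 to 29.2 RPKM at 3 weeks with the same samples at the ends. Of the 9 other desmosome and cornified-junction genes, 8 were tested and none was called by edgeR, beside 32.8% of all tested genes. Their median log2 fold change was 1.02. This median was 0.14 without replicate 4 of 3 weeks and 0.37 on log2(RPKM + 0.1). An unadjusted p under 0.05 was found for 4 of them, Pkp2 (0.83) and Dsg4 (1.61) upward and Pkp4 (-0.60) and Cdsn (-1.92) downward. Every gene called by edgeR has such a p, so at least 32.8% of all tested genes do. Dsg4 passed the filter on low counts through the 3-week samples, with 0 to 12 reads at 1 week and 12 to 29 at 3 weeks. It also entered the median above. DESeq2 called 1 of the list higher (19.3% of all genes). With limma on log2(RPKM + 0.1), which called 4402 of 12590 genes in either direction, 1 was lower. Perp, a membrane protein of desmosomes, was far above all 10 genes with 994 to 1165 RPKM at 1 week and 835 to 1198 RPKM at 3 weeks.

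Among the 11 adherens junction genes, 4 rose and none fell, beside 15.7% of all tested genes called higher and 17% called lower. Their median log2 fold change was 0.54. The number called higher was 2 with the replicate number as a block, 7 without replicate 3 of 3 weeks and 6 by DESeq2. DESeq2 called 19.3% of all genes higher. The replicate block called 2867 of 12590 genes in either direction, against 4127 in the main fit. The share called higher was not taken for the replicate block or for the fit without replicate 3. These counts can therefore not be set against all genes. Ctnnb1 rose by 0.54 on the log2 scale (edgeR adjusted p = 0.0152), with 122 to 155 RPKM at 1 week and 165 to 180.2 RPKM at 3 weeks. It was not called with the replicate block (edgeR adjusted p = 0.0640), the preparation block (edgeR adjusted p = 0.145) or without replicate 2 of 1 week (edgeR adjusted p = 0.0525). The actin linker vinculin (Vcl) rose by 1.15 on the log2 scale (edgeR adjusted p = 0.0170), and the nectins Nectin4 and Nectin3, which start cell contacts, rose by 1.36 (edgeR adjusted p = 0.000687) and 3.21 (edgeR adjusted p = 0.00161). Vcl was not called with the replicate block (edgeR adjusted p = 0.0652), without replicate 1 of 1 week (edgeR adjusted p = 0.0621) or by limma on log2(RPKM + 0.1) (adjusted p = 0.0660), while both nectins were called in 19 of 19 alternatives. E-cadherin (Cdh1) did not pass the test, with a log2 fold change of 0.58.

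Of 8 transcription factors of stratified epithelium, 1 fell and none rose, beside 17% of all tested genes called lower and 15.7% called higher. Their median log2 fold change was -0.48. The gene that fell was Ovol1, a repressor in epidermal differentiation, by 2.33 on the log2 scale (edgeR adjusted p = 0.00472). Ovol1 stood at 4.60 to 16.7 RPKM at 1 week and at 0.903 to 2.29 RPKM at 3 weeks. Of 7 proteases of corneodesmosomes and shedding and their inhibitor, 5 were tested. Klk7, which cleaves corneodesmosomes, fell by 5.37 on the log2 scale (edgeR adjusted p = 0.00613), with 9.01, 5.05, 74.5 and 134 RPKM at 1 week and 0.503 to 1.90 RPKM at 3 weeks. Adam10, a sheddase, rose by 0.58 on the log2 scale (edgeR adjusted p = 0.0110) but was not called with the replicate block (edgeR adjusted p = 0.0508), the preparation block (edgeR adjusted p = 0.0605) or limma on log2(RPKM + 0.1) (adjusted p = 0.0571). Basal markers gave 2 lower calls (Krt5 and Itga6) of 6 and suprabasal markers 2 (Krt1 and Krtdap) of 6 tested. Melanocyte markers gave 1 (Pmel) of 4 tested. No gene of these lists was called higher, beside 17% of all tested genes called lower and 15.7% called higher. Krt1 and Krtdap passed the filter on low counts through the 1-week samples, since not every 3-week sample exceeded the limit. At 3 weeks Krt1 had 7 to 15 reads per sample and Krtdap 9 to 24. Itga6 was called in 12 of 19 alternatives (adjusted p up to 0.107 on leaving out a sample) and was lost with either block, and Pmel was called in 15 of 19 (adjusted p up to 0.0751). No fibroblast (5 tested), leukocyte (1 tested) or endothelial marker (2 tested) was called by edgeR or DESeq2, nor had any an unadjusted p under 0.05.

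For each tested gene, the non-member closest in pattern was taken as the smallest root mean square difference of centred log2 CPM over the 8 samples. It was Teddm3 for Dsg1a (0.350) and Cyp4f39 for Dsg1b (0.313), and the copies themselves differed by 0.568, with 13 and 11 genes nearer. The abundant genes had closer matches, namely Zfp217 for Dsg2 (0.0483), Morc2a for Dsg3 (0.0863), Fgfr2 for Dsc2 (0.118), Pml for Dsc3 (0.0559), Plxnb1 for Jup (0.0829), Cpd for Pkp1 (0.0559) and the entry Ndor1_1 for Pkp3 (0.0346). Within the 10 genes, the closest pairs were Pkp1 with Dsg2 (0.133) and Dsc3 with Dsc2 (0.202). These distances are descriptions over 8 samples, and genes that vary little lie close to many others.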

How the data were processed

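Poly(A) RNA of 8 KC samples (4 cultured for 1 week, 4 for 3 weeks) was measured, and groups and replicate numbers were taken from the labels. The authors aligned the reads to GRCm38 with CLC Genomics Workbench 12 and deposited, per gene, raw counts of total exon, unique exon, gene and intron reads, and RPKM and TPM values (scaled to length and depth, TPM not used here). Strand use and annotation release are not given in the sources used here. Exon counts entered edgeR 4.0.16 (R 4.3.3; filterByExpr, TMM, glmQLFit and glmQLFTest, unpaired as in the study's statistics, although its text names shared batches), and genes with a Benjamini-Hochberg adjusted p under 0.05 were called. SEs and 95% intervals were derived from the F statistics. The replicates of a time differed beyond sampling noise (chi-square per degree of freedom at least 15.3). P-values set the difference between the times against the spread between the samples of a time. They treat the samples as independent, although some preparation numbers occurred at both times.

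The members and lists were chosen with earlier results of these data known. Named genes were the 10 members, Dsp, called genes of the pathway lists (values for at most 6 per list, by mean RPKM) and the nearest non-member of each member. Other genes were named after their values were seen. Alternatives were DESeq2 1.42.0, upper-quartile scaling, 2 other count filters, unique and gene reads, limma 3.58.1 on RPKM with a pseudocount of 0.1 or 1, replicate or preparation blocks and the omission of each sample. A length correction was chosen after seeing the data. On simulated counts for this comparison (12478 genes), 85 of 99 genes changed 4-fold and 31 of 98 changed 2-fold were recovered, with 4 false calls. The simulation changed a far smaller share of genes than the 32.8% called in the data. It drew the noise of each gene separately, without shifts shared by the genes of a sample, so its rates may differ from those of the data. Python 3.11.15 and matplotlib 3.10.9 served for summaries and plots. By the file names, replicates 1 and 4 had the same preparation number at both times (46 and 90), unlike replicates 2 and 3. Deviations of samples with the same replicate number correlated between -0.23 and 0.25. Samples with the same preparation number gave -0.23, 0.20 and 0.25, so these correlations cannot decide which samples are paired.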

Additional observations from a re-analysis of the deposited data

Results flagged for a closer look

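Of 36 sets of 4 samples examined for a value far from the others (each gene named by the rule, at each time), 2 held such a value, and chance gives about 1 in 20. Dsc2 at 3 weeks had 47.8 RPKM in replicate 4, against 19.7 to 23.5 RPKM in the other samples. Adam10 at 3 weeks had 25.5 RPKM in replicate 3, against 33.8 to 35.1 RPKM in the others. These are the samples in which genes with at least 5000 exon bases were high and low as a class, respectively. Dsc2 (5277 exon bases) belongs to this class, while Adam10 (4913) lies below its limit. The part of transcript length in both values was not tested.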

How the results depend on the processing

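Members called lower numbered 2 by edgeR, 1 with at least 10 reads in every sample (Dsg1a not tested), 1 with limma on log2(RPKM + 0.1), 0 with limma on log2(RPKM + 1), and 1 to 3 on leaving out a sample. The fit with at least 10 reads called 3682 of 11369 genes in either direction, and limma on log2(RPKM + 0.1) 4402 of 12590. All genes called lower were 24.5% with limma on log2(RPKM + 1) and 18.7% without replicate 4 of 3 weeks. For the other omissions this share was not taken. The replicate block gave 1 member lower (Dsg1b lost) and 2867 genes called in place of 4127. Only replicates 1 and 4 had the same preparation number at both times, and 1 of 4 correlated best with its own replicate number. The median log2 fold change of tested members ran from -0.44 (without replicate 4 of 3 weeks) to 0.10 on leaving out a sample. Dsg3, at 0.00, turned negative at -0.015 with upper-quartile scaling, -0.052 with no filter, -0.0036 with at least 10 reads, -0.020 on unique reads, -0.0093 on all gene reads, -0.19 with limma at either pseudocount, -0.031 with the replicate block and -0.016 with the length correction added later, and ran from -0.11 to 0.15 on leaving out a sample. With limma at pseudocounts of 0.1 and 1, Dsg2 was -0.075 and -0.056, Pkp1 -0.11 and -0.11, and Pkp3 -0.076 and -0.075. On leaving out a sample, Dsg2 ran from -0.069 to 0.36 and Pkp1 from -0.19 to 0.30. The cause of these shifts was not tested. With 4 samples per time, changes of 2-fold can be missed, and 2 to 14 reads per sample limit Dsg1a and Dsc1 at 3 weeks.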
